A study of Mus musculus with 12 samples.

Results

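The regions described here are the peaks of the HEPA1-6 list that carry no strand: their strand column holds a dot in place of plus or minus. On chromosomes 1 to 14 and 16 to 19, 908 of 26263 peaks (3.46%) were strandless, and the other 25355 carried a strand. The whole HEPA1-6 list held 28717 peaks, 1178 of them strandless, of which 154 lay on chromosome 15, 86 on X and 30 elsewhere, all left out here. The 908 peaks covered 0.935 Mb, against 50.2 Mb for the stranded peaks of the same chromosomes.

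HEPA1-6 is a mouse hepatoma cell line. Per the labels its genotype was WT, its treatment none and its cell type Hepatocyte, and the same labels are given for liver of C57/Bl6 mice. The series holds 12 libraries in 6 groups of 2: from each source, DNA pulled down with S9.6, pulled-down DNA digested with RNase H1, and input. The HEPA1-6 list came, per its peak names, from merged immunoprecipitates set against an input. It is 1 list from 1 cell line; neither single libraries nor the RNase H1 digests were analysed here.

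An R-loop forms when RNA anneals to the template strand of a DNA duplex and leaves its partner single. The antibody S9.6 binds the RNA-DNA hybrid, and RNase H1, which digests the RNA of a hybrid, is the usual control. R-loops are known from transcribed genes, above all near their starts and ends, and from repeated DNA such as telomeres, ribosomal DNA and satellite repeats. Because the hybrid holds RNA, an R-loop has a direction, and a peak without a strand is one for which the list names none.

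Of the 908 strandless peaks, 15 (1.65%, 95% Wilson interval 1.00 to 2.71%) reached a gene-start window, 250 bases before to 50 after a RefSeq gene start, against 3272 stranded peaks (12.9%). Over all peaks the share was 12.5%. Some genes have more than 1 window, and a start can lie inside the span of the gene, as for the Gm40237 and Gm40369 windows below. Windows were at hand for 24987 genes, against 45267 RefSeq genes on these chromosomes, and for none on chromosome 18. The peaks of chromosome 18 are counted in the shares, which are therefore lower bounds. Sequence was at hand for gene-start windows alone. The strandless peaks reached 17 windows of 15 genes, all of them predicted genes named Gm. Windows of 3 genes are shown, each picked as an extreme: the highest-scoring peak, the most identical copies and the most C relative to G. They held a tandem repeat, a sequence present in several copies, and runs of cytosines, and need not resemble the other windows. They are from RefSeq, GRCm38.p6, each written 5′ to 3′ on the strand of its gene.

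The Gm40237 window (chr4:118547156-118547455, plus strand) lay under the highest-scoring strandless peak that overlaps a gene. Capitals mark a word of 32 bases that recurs 7 times, each 44 bases after the last.

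Gm40237: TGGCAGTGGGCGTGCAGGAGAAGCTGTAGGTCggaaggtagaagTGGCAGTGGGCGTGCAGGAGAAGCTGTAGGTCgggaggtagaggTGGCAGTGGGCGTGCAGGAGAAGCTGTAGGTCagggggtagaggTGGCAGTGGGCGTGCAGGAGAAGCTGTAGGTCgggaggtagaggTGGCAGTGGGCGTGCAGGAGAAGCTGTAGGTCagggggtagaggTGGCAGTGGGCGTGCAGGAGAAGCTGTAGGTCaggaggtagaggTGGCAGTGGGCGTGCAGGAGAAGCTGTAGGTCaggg

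The Gm40369 window (chr6:47653742-47654041, plus strand) lay in 1 of the 2 neighbouring clusters around the gene Rn4.5s, and the identical 300 bases start 3 other genes there, Gm40367, Gm36327 and Gm40364. Capitals mark runs of 4 or more G (3 runs) or C (4 runs).

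Gm40369: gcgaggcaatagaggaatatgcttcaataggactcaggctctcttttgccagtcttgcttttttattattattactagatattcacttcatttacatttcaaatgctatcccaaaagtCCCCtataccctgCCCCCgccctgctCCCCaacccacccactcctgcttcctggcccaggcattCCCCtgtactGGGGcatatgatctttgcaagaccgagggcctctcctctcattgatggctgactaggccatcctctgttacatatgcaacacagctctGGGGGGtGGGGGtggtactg

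The Gm39784 window (chr2:30787183-30787482, minus strand) was the most C-rich relative to G of the 17, with 8 capitalised runs of C and none of G.

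Gm39784: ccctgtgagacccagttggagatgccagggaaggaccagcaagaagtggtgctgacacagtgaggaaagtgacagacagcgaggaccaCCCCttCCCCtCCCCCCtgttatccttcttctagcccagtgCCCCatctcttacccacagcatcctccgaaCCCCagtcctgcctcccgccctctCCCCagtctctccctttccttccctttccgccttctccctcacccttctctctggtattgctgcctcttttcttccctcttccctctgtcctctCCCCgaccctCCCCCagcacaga

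GC skew, the excess of G over C divided by their sum, was 0.63 in the Gm40237 window and -0.44 in the Gm39784 window, the highest and the lowest of the 17. Its median over the 17 was -0.069, with 7 windows (41.2%) above 0, against 0.0062 (51.1% above 0) over the 4757 windows under stranded peaks and 0.013 (52.6%) over all 30460 windows of the table. With the copies of the Gm40369 window counted once, 14 windows were left with a median of -0.013 and 7 above 0. The median GC content was 50.3% under strandless peaks, 62.7% under stranded peaks and 53.0% over all windows. A run GGGG on the strand of the gene was present in 12 of the 17 windows (70.6%), in 81.9% of windows under stranded peaks and in 69.6% of all windows. With CCCC counted too, so that either strand may hold the run, the shares were 94.1% under strandless peaks, 96.5% under stranded peaks and 86.8% of all windows. Windows identical to another gene's, letter for letter, were 3 of the 17 (17.6%), against 1.04% of all windows, and all 3 came from the Rn4.5s stretch.

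Distance to genes set the strandless peaks apart first. They overlapped a RefSeq gene in 182 of 908 cases (20.04%, 17.57 to 22.8%), the stranded peaks in 23894 of 25355 (94.2%), and all peaks together in 91.7%. The difference was -74.2 percentage points (Newcombe 95% interval -76.7 to -71.5). With only the 24034 genes that have a curated transcript among the 45267 RefSeq genes of these chromosomes, the shares were 5.73% of strandless and 93.0% of stranded peaks (all peaks 90.0%). All intervals cover counting error only, neighbouring peaks are not independent, and with 1 list per source there is no replicate and no p-value.

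The change with distance was a step. Among peaks 2 to 3 kb from the nearest gene 18 of 226 (7.96%) were strandless, and among peaks 3 to 4 kb away 90 of 138 (65.2%). For curated genes the same step went from 5 of 224 (2.23%) to 88 of 152 (57.9%). Of the 42 peaks more than 100 kb from any gene, 40 (95.2%) were strandless, and of the 195 more than 100 kb from any curated gene 135 (69.2%). Beyond 3 kb from every curated gene lay 844 strandless peaks (93.0%) and 486 stranded peaks (1.92%), with 5.06% over all peaks. Beyond 3 kb from every RefSeq gene lay 670 (73.8%) and 224 (0.883%), with 3.40% over all peaks.

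**Figure D1:**
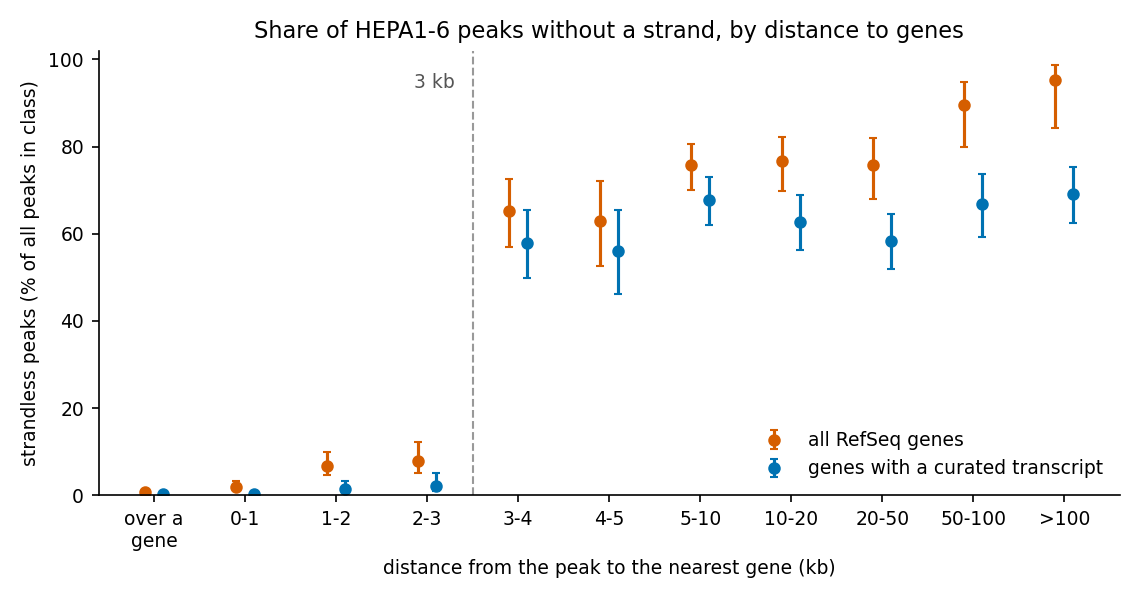
Percentage of HEPA1-6 peaks without a strand (y axis) in classes of distance to the nearest gene in kb (x axis), for all RefSeq genes and for genes with a curated transcript; bars are 95% Wilson intervals. The share rose from 7.96% at 2 to 3 kb to 65.2% at 3 to 4 kb for all genes, and from 2.23% to 57.9% for curated genes.

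The strand of the stranded peaks followed the genes as well: of 16508 that lay over exactly 1 gene of known strand, 15425 (93.4%) carried that gene's strand. How a strand was given to a peak is not given in the sources used here. The presence of a strand and the distance to a gene are therefore not independent measures in this list, and the gene distances here are a description. Most other contrasts are given also between the 726 strandless and the 1461 stranded peaks that lie outside genes.

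Outside genes, the strandless peaks lay a median of 8899.5 bp from the nearest gene (95% interval 7880 to 10024 bp, interquartile range 4576.5 to 23089.5 bp), and the stranded peaks 1082 bp (981 to 1163 bp). The strandless distances ran from 97 to 359678 bp. More than 50 kb from any gene lay 100 strandless peaks (11.01%) and 9 stranded peaks (0.0355%), with 0.415% over all peaks. The 2 farthest peaks lay on chromosome 1, 359678 and 312380 bp from the pseudogene n-R5s209 and 564260 and 584141 bp from the nearest curated gene, and both scored 12. Their neighbouring protein-coding genes were 4931408C20Rik and Gm597. The peak on chromosome 7 between Agbl1 and Ntrk3, a neurotrophin receptor gene, scored 15 at 254094 bp from the nearest gene. A peak on chromosome 2 between Dhx35 and Gm826 scored 26 at 246114 bp.

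Near genes the strandless peaks lay mostly on the downstream side. Up to 10 kb from the nearest protein-coding or lncRNA gene of known strand, 191 of 269 (71.0%, 65.3 to 76.1%) lay past the gene's end rather than before its start. Stranded peaks outside genes did so in 820 of 1168 cases (70.2%), so the classes differed by less than the counting error. Beyond 10 kb the shares were 221 of 426 (51.9%) and 125 of 229 (54.6%). The nearest such gene itself held a stranded peak in 61.0% of the strandless cases up to 10 kb (55.02 to 66.6%) and in 80.6% of the stranded cases (78.2 to 82.7%). Chromosome 18 is not in these counts, because gene strands of that chromosome were not used here.

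The 182 strandless peaks over genes touched 148 genes, 96 lncRNA and 44 protein-coding genes among them. Of the 148, 104 had no curated transcript and 111 bore a placeholder name beginning Gm or LOC; 130 of the 182 peaks touched no curated gene. Gm30843 and Gm30446, both lncRNA genes, held 5 strandless peaks each, beside 2 and 0 stranded ones. Gm30843 lies between Slco1a4 and Slco1a1, which encode organic anion transporters, and Gm30446 lies between Smyd2 and Prox1, a homeobox gene of hepatocytes and lymphatic endothelium. Mical3, a curated gene for an actin-oxidising enzyme, held 3 strandless peaks among 33 stranded ones.

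The 10 highest scores among strandless peaks over a gene ran from 85 to 361. The highest was over Gm40237, where the tandem repeat printed above lies. That peak, chr4:118547247-118548708, scored 361 over 1462 bp, 2327 bp from Tmem125, and the liver-labelled peak over it scored 5799. The next were over Gm34917 between Enpp4 and Clic5 (score 280), the immunoglobulin kappa locus Igk (234) and Gm45968 (212), all of 249 to 264 bp, and over Gm36090 (201). The Igk and Gm45968 peaks overlapped no liver-labelled peak. The remaining 5 lay over Gm34745 (146), Gm30843 (146), Gm31889 (111), Gm33849 (86) and Gm30446 (85), and a liver-labelled peak overlapped each of these.

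Spacing was wide and uneven. The gap from a strandless peak to the nearest peak of either class had a median of 6707 bp (5635 to 9269 bp), against 2400 bp (2363 to 2445 bp) for stranded peaks. Outside genes the medians were 8069.5 bp (6082 to 10358 bp) and 2422 bp (2266 to 2627 bp). To the nearest stranded peak the median gap was 31090.5 bp, and to the nearest strandless peak 223348 bp. While 308 strandless peaks (33.9%) lay within 10 kb of a stranded one, 275 (30.3%) lay more than 100 kb away, the farthest 4681781 bp. The share of strandless peaks per chromosome ran from 1.88% on chromosome 16 (11 peaks) to 4.84% on chromosome 2 (115 peaks), and chromosome 6 held 94 (4.67%).

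Strandless peaks neighboured one another. The nearest peak was itself strandless for 376 of 908 (41.4%, 38.2 to 44.6%), against 321 stranded peaks (1.27%) and 2.65% over all peaks. Outside genes the shares were 39.4% and 6.91%, a difference of 32.5 points (28.7 to 36.3). The distance to genes moves with both measures, and its part in this difference was not tested.

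A cluster was counted where 3 or more strandless peaks followed each other with gaps of at most 50 kb. There were 49 clusters with 205 peaks (22.6%, 19.98 to 25.4%) on 15 chromosomes, 25 of them of 3 peaks, 9 of 4 and 15 of 5 or more. Clusters of a peak's own class held 89.2% of all peaks, since stranded peaks lie far closer together. Counted among peaks outside genes alone, 16.1% of strandless and 9.72% of stranded peaks lay in clusters, a difference of 6.40 points (3.418 to 9.58). Spans ran from 4893 to 133647 bp with a median of 20308 bp. No stranded peak lay inside 39 of the 49 clusters and no gene inside 19. Chromosome 2 held 11 clusters with 52 of its 115 peaks. Peaks in clusters were wider than the others, with a median of 975 bp (880 to 1070 bp) against 569 bp (515 to 617 bp), while the median scores were 20 and 19.

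The most peaks were in 2 clusters of 10. The first, chr2:159615839-159692403, held no gene: its peaks lay 85109 to 160727 bp from the pseudogene Gm11445, with Dhx35, an RNA helicase gene, 757619 bp to one side and Gm826 618990 bp to the other. Its scores ran from 15 to 66, and 5 of its peaks overlapped a liver-labelled peak. The second, chr6:114502314-114635960, was scattered, with 7.01% of its span covered, between Hrh1, the histamine H1 receptor gene (19016 bp away), and Atg7, an enzyme gene of autophagy (7167 bp away). Its scores ran from 16 to 56. Of its 10 peaks 9 overlapped a liver-labelled peak, and the liver-labelled list had 27 peaks across the same span, all strandless.

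There were 3 clusters of 6 peaks, of which the shortest, chr10:40490005-40513115 on chromosome 10, lay between Cdk19, a kinase gene of the Mediator complex (6187 bp away), and Slc22a16, a carnitine transporter gene (57206 bp away). Its scores of 12 to 29 were low, and 1 of the 6 overlapped a liver-labelled peak. The clusters thus differed in how far the other list shared them: in 3 of the 49 every peak overlapped a liver-labelled peak, and in 17 none did.

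**Figure D2:**
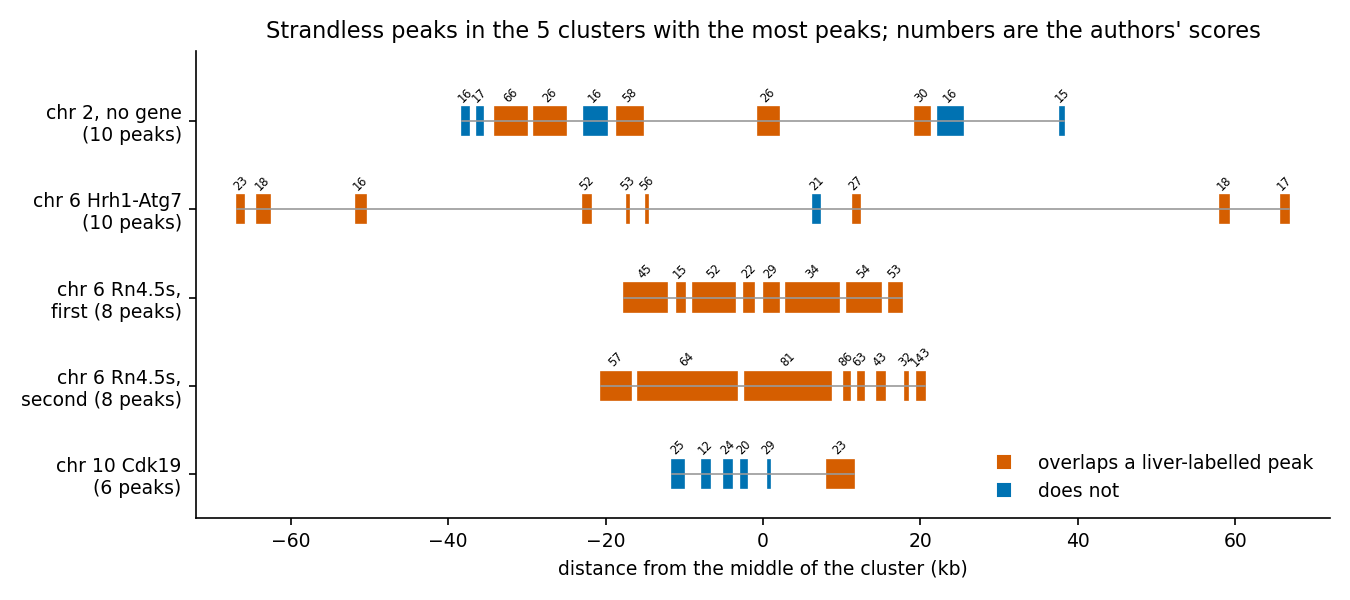
Positions of the strandless HEPA1-6 peaks in 5 clusters, as distance in kb from the middle of each cluster (x axis); box width is peak width, numbers are the authors' scores, and colour shows overlap with a liver-labelled peak. The chromosome 10 cluster is the shortest of 3 with 6 peaks. All 16 peaks of the 2 Rn4.5s clusters overlapped one, 9 of 10 between Hrh1 and Atg7, 5 of 10 in the gene-free chromosome 2 cluster and 1 of 6 beside Cdk19.

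The clusters next in size to those of 10, with 8 peaks each, lay 50054 bp apart on chromosome 6 in the stretch chr6:47651672-47778261. Its 16 strandless peaks covered 46.5% of 126590 bp, and no stranded peak lay among them. Rn4.5s, annotated by RefSeq as an rRNA gene, is the 174 bp gene chr6:47654921-47655094; 4.5S RNAs of this kind are short rodent transcripts made by RNA polymerase III. The peak over it, chr6:47651672-47657173, scored 45. Scores in the stretch ran from 15 to 143 with a median of 52.5, against a median of 19 over all 908. All 16 peaks overlapped the liver-labelled list, which had 6 peaks there, all strandless, and the one over Rn4.5s scored 73.

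Some gene-start windows of the stretch were copies of each other. The 300 bases printed above for Gm40369 are a window of 4 genes in identical form. In Gm40369 they lie inside the gene, which starts at 47652901. The window of Gm52861, 84845 bp away, differs from them by 4 single-base edits. A strandless peak lay over 4 of these 5 copies, with scores of 45, 52, 34 and 57. Peaks with a strand resumed on both sides: Ezh2, the gene of the histone H3 lysine methyltransferase of Polycomb, 56402 bp away, held 4 with a top score of 238, and Pdia4, a disulfide isomerase gene of the endoplasmic reticulum, 17880 bp away, held 3 with a top score of 18. How reads with several equal positions in the genome were placed is not given in the sources used here, and the part of such reads in these peaks was not tested.

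**Figure D3:**
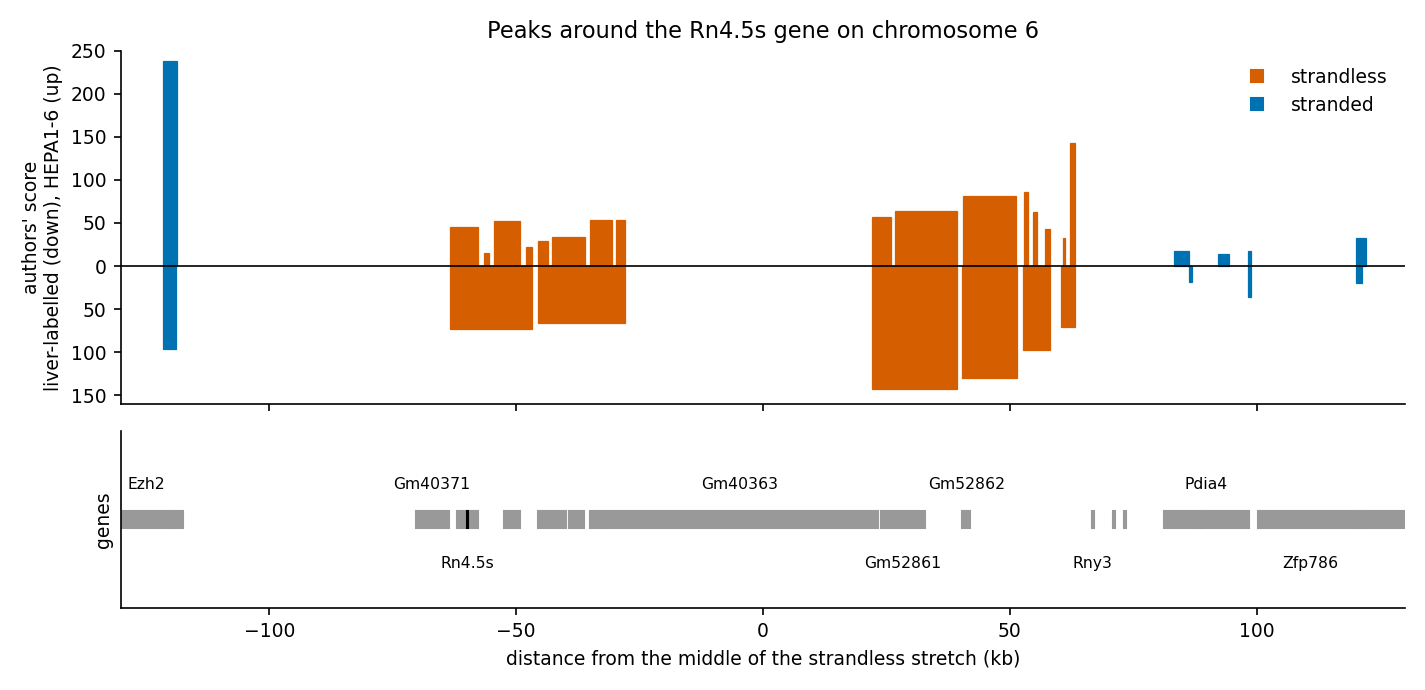
Peaks around Rn4.5s on chromosome 6: authors' score (y axis; HEPA1-6 upward, liver-labelled list downward, scores not comparable between lists) against distance in kb from the middle of the strandless stretch, with RefSeq genes below. The 16 HEPA1-6 and 6 liver-labelled peaks of the stretch are strandless, and the peaks over Ezh2 and Pdia4 are stranded.

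Chromosome ends carried the highest scores. The last peak of the chromosome was strandless on 11 of 18 chromosomes, and on 9 of these 11 it was also the highest-scoring peak of the chromosome. Scores of these 11 were 7721 on chromosome 1, 5874 on 2, 3183 on 5, 6484 on 7, 1928 on 11, 10769 on 12, 29098 on 14, 2690 on 16, 14 on 17, 6669 on 18 and 3759 on 19. All but the chromosome 17 peak thus stood far above the list median of 21. These peaks were 379 to 3066 bp wide, with a median of 934 bp, against 669 bp over all 908 strandless peaks. Of the 11, 10 ended 7780 to 124556 bp past the last RefSeq gene. The last peak was stranded on the other 7 chromosomes, with scores of 12 to 3631 and a median of 1510. On chromosomes 6, 10 and 13 this stranded peak was also the highest-scoring of its chromosome, and on chromosome 3 it ranked 2. Scores above 1000 were thus seen in 14 of 18 last peaks, 10 strandless and 4 stranded. Mouse chromosomes end in telomere repeats, and the lists do not say how far a last peak lies from them.

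**Figure D4:**
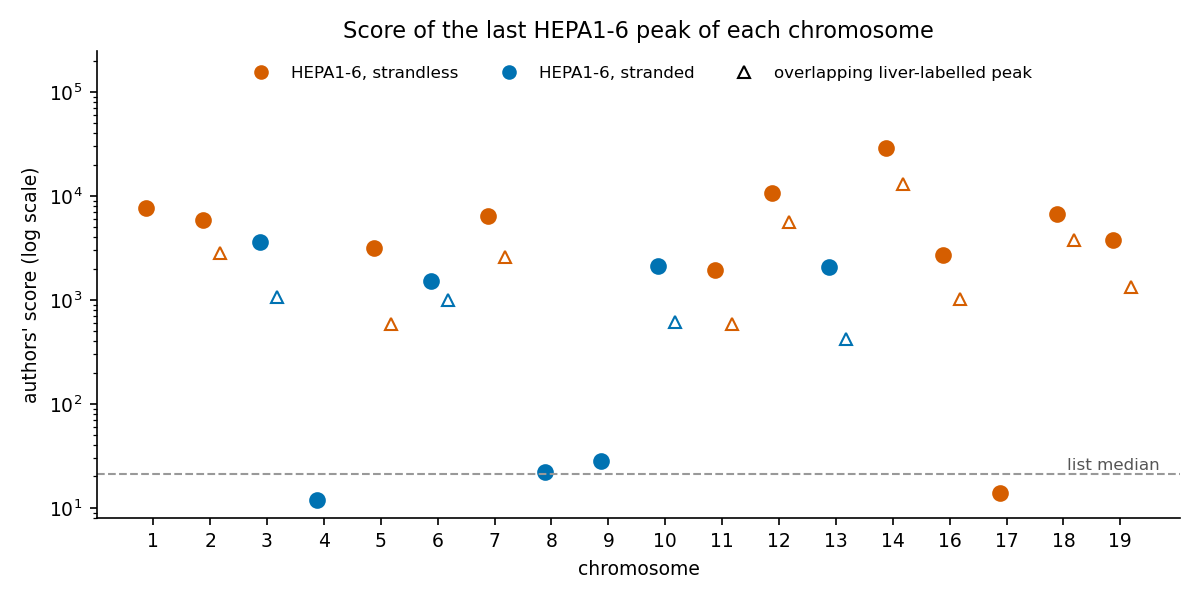
Authors' score (y axis, log scale) of the last HEPA1-6 peak of each chromosome (x axis), coloured by class, with the score of the overlapping liver-labelled peak as an open triangle (not comparable in height between lists) and the list median of 21 dashed. Of 18 last peaks 14 scored above 1000, 10 strandless and 4 stranded.

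At the other end the pattern differed. The first peak was strandless on 6 chromosomes, with scores of 226 on chromosome 1, 40 on 2, 15 on 3, 12 on 6, 30 on 13 and 81 on 18. The highest of these is far below 10 of the 11 strandless last peaks. On the other chromosomes the first peak was stranded, with scores from 14 on chromosome 17 to 512 on chromosome 9. Mouse chromosomes carry their centromere at the first end.

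Counted by position, 24 strandless peaks (2.64%, 1.78 to 3.903%) lay within 1 Mb of the first or last gene or peak of a chromosome, against 297 stranded peaks (1.17%) and 1.22% over all peaks, a difference of 1.47 points (0.600 to 2.74). Outside genes the difference was 0.976 points with an interval that includes 0 (-0.324 to 2.58). At the last end alone 18 strandless peaks (1.98%) lay within 1 Mb (all peaks 0.800%), and outside genes they exceeded the stranded share by 1.31 points (0.264 to 2.71). At the first end there were 6 (0.661%; all peaks 0.423%). That end was the start of the first gene or peak of either list. On chromosomes 1, 3 to 7, 12, 14, 16 and 17 it lay more than 1 Mb before the first HEPA1-6 peak. No peak of these chromosomes could therefore count at the first end, and the either-end shares carry the same limit. Within 100 kb of either end lay 14 strandless peaks (1.54%) and 16 stranded ones (0.0631%), with 0.114% over all peaks, and outside genes the shares were 1.79% and 1.03% (difference 0.764, -0.229 to 2.08). A peak that is itself the outermost feature has distance 0 by this measure. Without the last peak of each chromosome the 1 Mb share was 1.56% (0.932 to 2.60%), against 1.14% of stranded peaks.

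The strandless peaks as a whole did not score higher: the median was 19 (19 to 21), against 21 (20 to 21) for stranded peaks, and outside genes 19.5 against 19. The difference lay in the upper tail. Scores above 100 were reached by 49 strandless (5.40%) and 587 stranded peaks (2.32%), with 2.42% over all peaks, and outside genes by 5.65% and 2.19%, a difference of 3.46 points (1.75 to 5.48). Above 500 were 16 (1.76%) and 30 (0.118%), with 0.175% over all peaks, so 34.8% (22.7 to 49.2%) of the 46 peaks above 500 were strandless. Outside genes the difference above 500 was 1.66 points (0.661 to 3.03). Of the 10 highest scores of the 18 chromosomes 9 were strandless. Of the 16 above 500, 10 were last peaks, and none lay over a gene or in a cluster.

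The 10 highest were 8 of the last peaks named above and a pair that were not last peaks. The top one, chr14:124801485-124802242, scored 29098 over 758 bp, 123799 bp from Fgf14, a fibroblast growth factor family gene. The second, chr12:120028089-120029022, scored 10769, 6847 bp from Tmem196. The exceptions to the position at the end were chr12:97061432-97061788 (6118), between Flrt2 and Galc, 138374 bp from the pseudogene Gm6863, and chr3:5860341-5860818 (5836), 109046 bp from the pseudogene Gm8797 and 281745 bp from Pex2, a peroxisome assembly gene. Of the 10, only the last peak of chromosome 1 overlapped no liver-labelled peak.

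Strandless peaks had a median width of 669 bp (597 to 730 bp), against 1112 bp (1095 to 1128 bp), and outside genes 646 bp (591 to 709 bp) against 771 bp (725 to 806 bp). Narrower than 300 bp were 206 strandless peaks (22.7%) and 11.7% of stranded ones, with 12.1% over all peaks; outside genes the difference was 4.87 points (1.26 to 8.62). Wider than 5 kb were 19 (2.09%) and 8.69%, with 8.46% over all peaks, and outside genes the shares were 0.964% and 0.890%. Among peaks scoring above 100, the median width was 437 bp for the 49 strandless and 3591 bp for the 587 stranded peaks, and 55.1% against 7.16% were narrower than 500 bp, with 10.8% over all peaks above 100. Outside genes that contrast was smaller: the 41 strandless peaks had a median of 447 bp with 53.7% (38.7 to 67.9%) narrower than 500 bp, and the 32 stranded peaks 621.5 bp with 40.6% (25.5 to 57.7%), intervals that overlap. Spearman's rho of score with width was 0.11 over 908 strandless and 0.46 over 25355 stranded peaks, and 0.068 and 0.21 outside genes; these describe peaks of 1 list, which share its depth and caller.

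The widest strandless peak, chr2:164522284-164535034, ran over 12751 bp at Gm36090, between Pigt and Wfdc2, and scored 201. The next 2, of 12491 and 10853 bp, belonged to the stretch around Rn4.5s, over Gm52861 and Gm52862. A peak of 9878 bp (score 35) lay over Gm39783, next to the Gm39784 window printed above. The fifth, 7304 bp and the widest outside genes, lay 5852 bp from Phlda1 on chromosome 10 and scored 31.

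**Figure D5:**
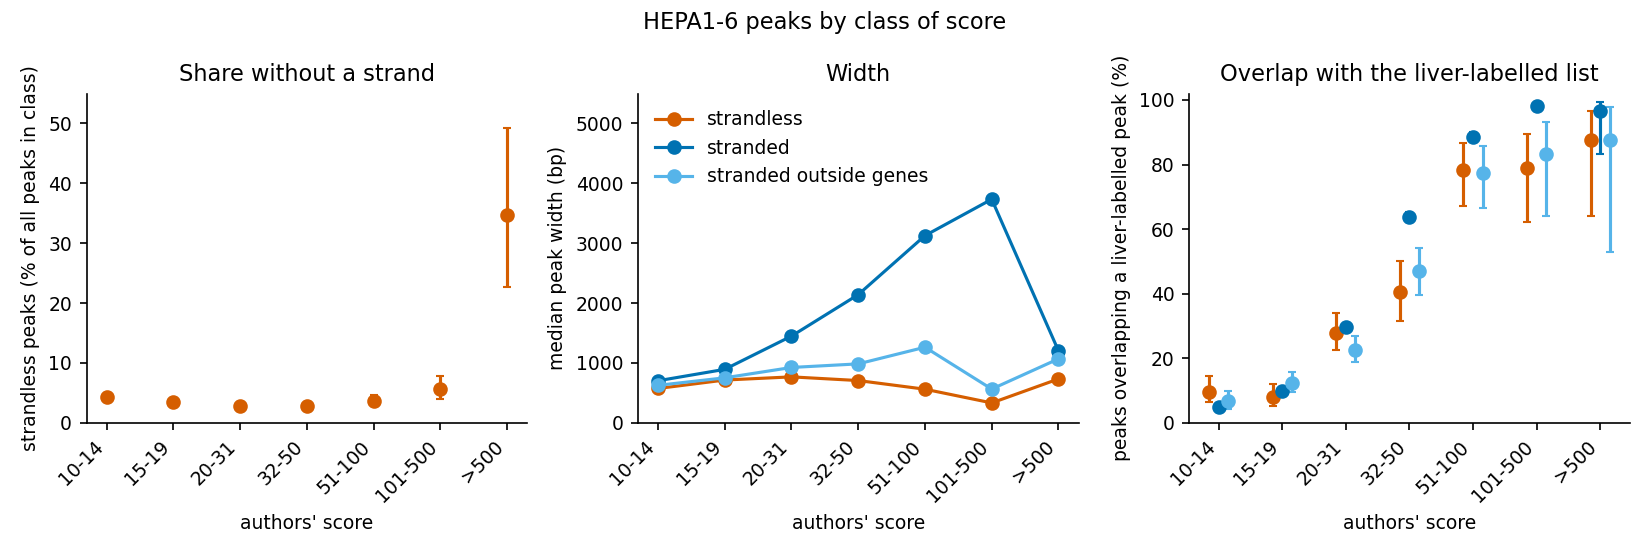
HEPA1-6 peaks by class of authors' score (x axes): share without a strand (left, %), median width in bp (middle) and share overlapping a liver-labelled peak (right, %), with 95% Wilson intervals in the left and right panels; stranded peaks are shown in all and outside genes. Above a score of 500, 34.8% were strandless; at scores above 100 and up to 500 the median width was 333 bp for strandless, 3734 bp for all stranded and 564.5 bp for stranded peaks outside genes.

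The list labelled liver was used as the only other readout of the same regions. It is called liver-labelled because its peaks covered the same 9 of 15 hepatocyte and hepatoma genes as the HEPA1-6 list, Afp, the fetal liver and hepatoma gene, and Alb among them, and missed Apoa1, Apob, Fgb, Gpc3, H19 and Ttr. In both lists 0 of 4 endothelial, 2 of 4 macrophage (Cd68, Csf1r), 0 of 4 stellate, 1 of 3 cholangiocyte (Sox9) and 0 of 3 lymphocyte genes held a peak. No gene of these lists held a strandless HEPA1-6 peak. Of all 45267 RefSeq genes of these chromosomes 148 held one, so a count of 0 among so few genes is near that share. The share of all genes that held a peak of either class is not given here.

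Of the 908 strandless peaks 237 (26.1%, 23.3 to 29.1%) overlapped a liver-labelled peak by at least 1 bp, against 30.2% of stranded and 30.1% of all peaks, a difference of -4.11 points (-6.92 to -1.11). Outside genes the order turned, 25.3% against 23.1%, with an interval of the difference that includes 0 (2.21 points, -1.55 to 6.11). Strandless liver-labelled peaks alone overlapped 234 of the 237; since the strand goes with the distance to genes, that count is not independent of the overlap itself. Seen from the other list, 233 of 1285 strandless liver-labelled peaks of these chromosomes (18.1%, 16.1 to 20.3%) overlapped one of the 908. Among the 243 overlapping pairs of strandless peaks 129 (53.1%, 46.8 to 59.3%) had the same start or the same end to the base and 25 had both; stranded pairs shared an edge in 4461 of 9642 cases (46.3%, 45.3 to 47.3%). Outside genes the shares were 103 of 186 strandless pairs (55.4%) and 194 of 338 stranded pairs (57.4%).

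The share overlapping was low at low scores and high at high ones. Of strandless peaks, 9.66% overlapped a liver-labelled peak at scores of 10 to 14, 7.91% at 15 to 19, 27.8% at 20 to 31, 40.4% (31.5 to 49.99%) at 32 to 50, 78.5% at 51 to 100, 78.8% from there to 500 and 87.5% above 500. In the same order, stranded peaks overlapped in 5.00%, 9.88%, 29.8%, 63.6%, 88.6%, 98.2% and 96.7% of cases. Outside genes the shares were 9.09%, 8.56%, 25.9%, 35.1%, 78.8%, 80.0% and 87.5% for strandless and 6.62%, 12.2%, 22.6%, 46.9%, 77.5%, 83.3% and 87.5% for stranded peaks. At 32 to 50, where strandless peaks outside genes lay farthest below stranded ones, the intervals overlapped (25.3 to 46.2% and 39.7 to 54.2%). Peaks in clusters overlapped in 73 of 205 cases (35.6%) and the others in 164 of 703 (23.3%). Of those 73, 16 lay in the Rn4.5s stretch. Peaks in clusters were also wider, with a median of 975 bp against 569 bp, and the part of width in this contrast was not tested. Of the 11 strandless last peaks 9 were shared, and of the 6 strandless first peaks 4. The 5 pairs that ranked highest by score in both lists together were the last peaks of chromosomes 14, 12, 18 and 7 and the chromosome 12 peak near Gm6863, with HEPA1-6 scores of 29098, 10769, 6669, 6484 and 6118 and liver-labelled scores of 13071, 5671, 3753, 2564 and 5570. The scores rank peaks within each list and are not comparable between them.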

How the data were processed

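S9.6 immunoprecipitates and inputs of HEPA1-6 cells and mouse liver were compared as the 2 peak lists deposited by the authors, which give chromosome, start, end, name, score and strand. The deposited score, a whole number for each peak, has no stated scale and was used within a list only; starts and ends are positions per the files. The submitters' processing notes name mm10, CASAVA 1.8.2, cutadapt, Bowtie2, bedtools, SAMtools and MACS2; their roles, thresholds, the merged libraries and the source of the strand are not given in the sources used here. Sequencing depth is unknown. Peaks were laid over RefSeq genes of GRCm38.p6 (curated: a transcript accession beginning NM or NR), with Python 3.11.15, pandas 2.3.3, NumPy 2.4.6, SciPy 1.17.1 and statsmodels 0.14.6. Chromosome ends are the outermost gene or peak, since no assembly lengths were used. Shares have Wilson and differences Newcombe 95% intervals, medians binomial order-statistic intervals; the functions were tested on simulated data.

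Regions named were the 10 highest-scoring, 5 farthest, 5 widest and 10 highest over genes, the 5 clusters with most peaks (the shortest of 3 tied for the last place), the 5 top pairs and strandless first or last peaks. A peak among the farthest is not reported here. Members and lists were chosen with earlier results of these data known. The 42 alternatives include 6 chosen after seeing the data.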

Additional observations from a re-analysis of the deposited data

How the results depend on the processing

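Of 42 alternatives over 8 results, 23 stayed within the main value's 95% interval and 19 moved beyond it; 39 kept the order against stranded peaks, for clusters the lower share among strandless peaks, which turns when only peaks outside genes are counted (16.1% against 9.72%). Of the alternatives the order turned in 3: the median score outside genes (19.5 against 19), the liver-labelled overlap outside genes (25.3% against 23.1%) and that overlap when 50% of both peaks was required (15.97% against 12.9%). Gene overlap was 17.4% with chromosomes 15 and X added and 5.73% with curated genes. The median gene distance was 11020 bp with protein-coding and lncRNA genes, 10750.5 bp with chromosomes 15 and X and 15151.5 bp with curated genes. The share in clusters was 18.5% with gaps up to 20 kb, 26.5% with 100 kb, 41.3% with 2 or more peaks and 19.3% without chromosome 2. A strandless nearest neighbour was found for 32.3% with scores at or above the list median and 37.96% without chromosome 2. The share near ends was 1.54% within 100 kb, 11.9% within 5 Mb and 1.56% without last peaks, where that of stranded peaks was 1.14%. All of these shares keep first ends that on some chromosomes lay more than 1 Mb before the first peak. The median width was 741 bp with scores at or above the median and 594.5 bp with each cluster counted once. Liver-labelled overlap was 15.97% at 50% of both peaks, 45.5% with HEPA1-6 scores and 17.5% with liver-labelled scores at or above their median. Where an alternative changed the peaks or genes counted, that change is its construction; other causes were not tested. No paired analysis was possible because each source has 1 merged list, and for the same reason no replicate could be left out. Without depth, a peak missing from a list is not shown to be absent.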
